A study of Mus musculus with 16 samples.

Results

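The 10 mouse genes described here fold, refold or degrade proteins inside mitochondria, and were followed in pancreatic islets. They are Hspa9, Hspd1, Hspe1, Lonp1, Clpp, Clpx, Trap1, Dnaja3, Afg3l2 and Yme1l1. All were chosen by name for these roles, with earlier results of these data known. Each of the 10 had exactly 1 row among the 10208 genes of the authors' deposited table. RNA came from islets of mice labelled Ins1-/-:Ins2f/f:Pdx1CreERT:mTmG, on a mixed but mostly C57Bl/6 background, 6 days after tamoxifen. Such mice lack Ins1, carry a loxP-flanked Ins2 as their remaining insulin gene, and hold a fluorescent Cre reporter (mTmG). Their tamoxifen-activated recombinase is driven by regulatory sequence of Pdx1, which is active in beta cells and in some other cells of the pancreas. The 7 samples labelled Cre+T were compared with the 9 labelled Cre-T, a comparison that asks what loss of Ins2 does to the islet transcriptome. All 16 carry the same genotype label, so the labels do not tell whether the Cre-T mice held the transgene. Esr1, the receptor gene that supplies part of CreERT, differed between the groups by 9.30 ± 0.39 log2 units, whichever way its sign is read. A difference in expression of the transgene and loss of Ins2 therefore cannot be told apart in this comparison. The age of the mice and the number of animals behind a sample are not told either, so the p-values reflect sample-to-sample spread that may be partly technical.

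Most mitochondrial proteins are made in the cytosol and pulled unfolded into the matrix, where the Hsp70 protein encoded by Hspa9 draws them in. The chaperonin built from the products of Hspd1 and Hspe1 then gives many of them a closed chamber to fold in. Proteins that fail to fold, or that are oxidised, are unfolded and cut up by ring-shaped ATP-driven proteases: LON and ClpXP in the matrix, and the AAA proteases in the inner membrane. When unfolded protein builds up in mitochondria, mammalian cells can raise the transcription of several of these genes, and the factors CHOP, ATF4 and ATF5 have been linked to that response. Beta cells depend on mitochondria to couple glucose to insulin release.

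Promoter sequence shows 1 feature that pairs 2 of the genes. Hspd1 and Hspe1 lie head to head on chromosome 1, and RefSeq places 1 start of Hspd1 only 216 bases from the start of Hspe1 (build GRCm38.p6). The stretch between these starts is printed because both genes are read outward from it. RefSeq gives Hspd1 another start 95 bases past the start of Hspe1, whose window held no match. Capitals mark GAANNTTC, the core of the heat shock element bound by heat shock factors. Only this core was searched and counted, and the letters on either side of it, ttcta and cggaa, were not scored.
Hspd1-Hspe1, chr1:55087932-55088148, plus strand: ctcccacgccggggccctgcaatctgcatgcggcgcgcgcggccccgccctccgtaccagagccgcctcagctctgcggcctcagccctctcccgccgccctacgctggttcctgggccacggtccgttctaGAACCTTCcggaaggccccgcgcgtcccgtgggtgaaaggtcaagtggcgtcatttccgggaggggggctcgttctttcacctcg
The match lies 84 bases before the start of Hspe1 and 139 bases before that start of Hspd1. The motif reads the same on both strands, and was found in 7.86% of all 32851 promoter windows and 5.60% of those whose gene had a row, each 250 bases before to 50 bases after a RefSeq start.

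Further promoters are shown for the gene that fell most, the 1 gene that rose and the 1 gene with a cyclic AMP response element, each as the 100 bases before its start. In Clpx the capitals mark CGCATGCG, a core of the site of the transcription factor NRF1. In Trap1 they mark TGACGTCA, the full cyclic AMP response element.
Lonp1, chr17:56626904-56627003, minus strand: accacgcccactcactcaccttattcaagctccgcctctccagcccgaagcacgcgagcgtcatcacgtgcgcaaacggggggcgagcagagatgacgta
Clpx, chr9:65294160-65294259, plus strand: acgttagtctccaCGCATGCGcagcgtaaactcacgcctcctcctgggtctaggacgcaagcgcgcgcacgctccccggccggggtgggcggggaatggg
Trap1, chr16:4077811-4077910, minus strand: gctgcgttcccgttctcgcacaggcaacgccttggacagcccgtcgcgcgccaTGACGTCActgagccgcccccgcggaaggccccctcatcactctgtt
Of all windows, 1.87% held the NRF1 core and 1.79% the cyclic AMP element, counting both strands of these palindromes, against 3.96% and 3.18% of the 10116 windows whose gene had a row. Windows were at hand for 8 of the 10 genes (9 windows), and those of Hspa9 and Afg3l2 were not analysed here. None of the 9 windows held TGATGNAA on either strand, a form of the element read by CEBP and ATF dimers, which was found in 3.97% of all windows and 2.12% of windows whose gene had a row. The other motifs searched on both strands, the GABP site CCGGAAGT (3.89% of all windows, 8.24% of those whose gene had a row) and the YY1 site AAGATGGC (2.75% and 4.63%), also had no match in the 9. These are matches of letters and not mapped sites, and no overlap between motifs occurred in the 9 windows.

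Values per sample were not part of the data, so each gene has 1 log2 fold change and 1 mean. Each fold change is Cre+T relative to Cre-T, a direction the header does not state and which rests on taking Ins2 to be lower and Esr1, the receptor gene that supplies part of CreERT, to be higher in Cre+T. Ins2 itself stood at -0.47 ± 0.17 log2 units (limma adjusted p = 0.041) per the authors' deposited table and Esr1 at 9.30 ± 0.39. Both signs are assumed here, so they are no check of the labels. Each ± is a standard error, obtained by dividing the fold change by limma's moderated t. Genes were called at an adjusted p under 0.05, the Benjamini-Hochberg value of the authors' limma fit over all 10208 rows. The depth of single samples is unknown, and the labels state only a common target for all samples, read as pairs of 150 bases. The first part of the sample titles takes 6 values of unstated meaning. Both groups occur under 2 of them, with 7 samples, so a difference between title values and one between groups cannot be told apart for the rest. All 12 beta cell markers had a row, with a median mean of 8.36 log2 CPM, and Ins2 stood at 16.3 log2 CPM, but 22 of 25 acinar markers had one too, with a median of 9.63 log2 CPM per the authors' deposited table.

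Of the 10 genes, 6 passed as lower and 1 as higher, and 3 missed the threshold, per the authors' deposited table. The 6 that fell were Lonp1, Hspa9, Dnaja3, Clpp, Hspd1 and Trap1, and the 1 that rose was Clpx. Over all rows of the authors' deposited table, 37.6% were called, 20.1% lower and 17.6% higher. The 10 genes had a median log2 fold change of -0.23, against -0.00298 over all rows of the authors' deposited table. They were well expressed, 9 of them above the median mean of 5.21 log2 CPM, and 8 had a standard error below the median of all rows, so small changes could pass. Among the 5104 rows at or above that median, adjusted again, 15.7% were lower and 21.5% higher, and of the 9 genes among them 5 were lower and 1 was higher. A scaling that makes the summed expression of both groups equal turned the split over all rows to 38.5% lower and 8.42% higher. The same 7 of the 10 genes were called under it, in the same directions. There the log2 fold changes of Hspd1 and Clpp moved from -0.25 to -0.40, that of Trap1 from -0.21 to -0.35 and that of Clpx from 0.50 to 0.36 (adjusted p = 0.048 from the shifted limma values). Hspe1 moved from -0.04 to -0.18 and did not pass.

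**Figure D1:**
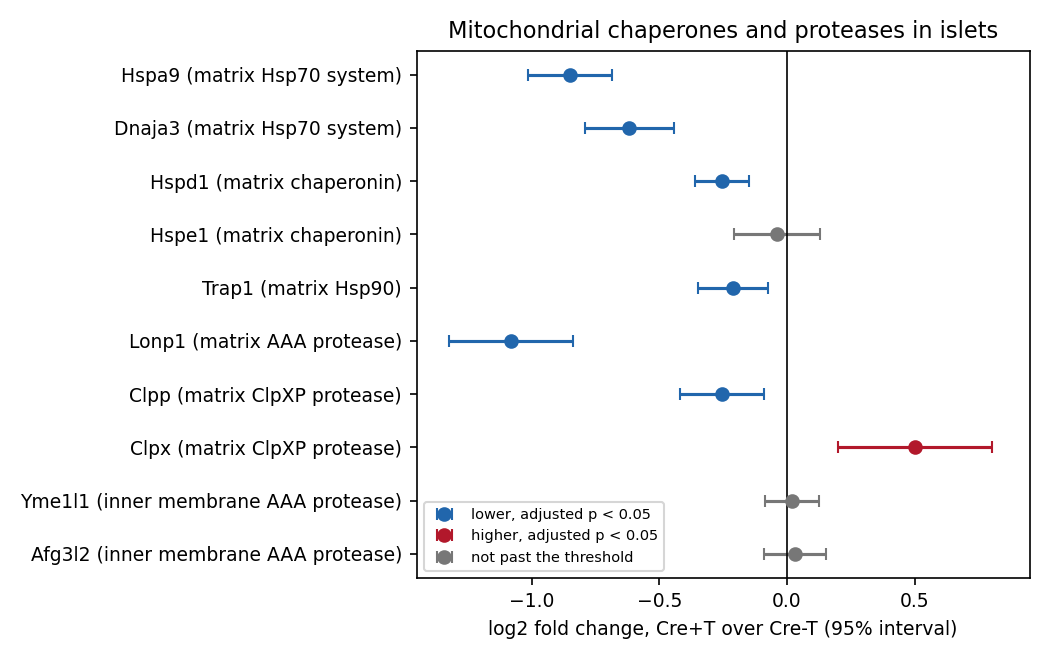
Log2 fold change of each gene, Cre+T over Cre-T, with its 95% interval from the standard error, grouped by the role of its product. The intervals of 6 genes lie wholly below 0, that of Clpx lies above 0, and those of Hspe1, Yme1l1 and Afg3l2 cross 0.

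Of the matrix Hsp70 and its J-domain partner, both genes fell in Cre+T. Hspa9 (ENSMUSG00000024359.8) encodes mortalin, the Hsp70 that pulls proteins through the inner membrane and refolds them. It fell by 0.85 log2 units with a standard error of 0.0769, to 55.5% of the Cre-T level (95% interval 49.6% to 62.1%, limma adjusted p = 1.8e-05) per the authors' deposited table. Its moderated t of -11.0 was the lowest of all 10208 rows, and its p ranked 3 among the rows of the authors' deposited table. With a mean of 9.27 log2 CPM it was number 110 in expression among the rows of the authors' deposited table. Dnaja3 (ENSMUSG00000004069.11) encodes TID1, a J-domain partner that hands clients to this Hsp70 and stimulates its ATPase. It fell by 0.62 log2 units with a standard error of 0.0821, to 65.2% of the Cre-T level (57.8% to 73.5%, limma adjusted p = 0.0002) per the authors' deposited table. Annotated exons of Dnaja3 overlap those of Vasn and Coro7 over 313 bases, and their reads cannot be told apart where counting ignores strand or isoform.

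Cofactors of the same Hsp70 did not pass under the authors' scaling, and are named here as its partners and not for their values. They belong to a list of 13 genes, of which 3 fell under that scaling. With the summed expression of both groups made equal 9 of the 13 fell, beside 38.5% of all rows, so their calls depend on the scaling. The nucleotide exchange factor gene Grpel1 stood at -0.10 ± 0.07 and its paralogue Grpel2 at -0.05 ± 0.11 per the authors' deposited table. Of the import motor that anchors this Hsp70 at the inner membrane, Timm44 was at -0.08 ± 0.07, Pam16 at -0.16 ± 0.08 and Dnajc19 at -0.04 ± 0.08 per the authors' deposited table. Whether Hspa9 differed from these genes in its change was not tested, since the table gives no covariance between genes.

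The 2 subunits of the chaperonin had different values. Hspd1 (ENSMUSG00000025980.9), the barrel-forming HSP60, fell by 0.25 log2 units with a standard error of 0.0498, to 83.9% of the Cre-T level (78.0% to 90.3%, limma adjusted p = 0.0021) per the authors' deposited table. Hspe1 (ENSMUSG00000073676.4), the lid-forming HSP10, stood at -0.04 ± 0.08 log2 units, or 97.3% of the Cre-T level (86.6% to 109.3%, limma adjusted p = 0.72) per the authors' deposited table. These intervals overlap from 86.6% to 90.3%, and the difference between the genes was not tested. Both genes are read from the interval printed above. Their annotated exons overlap by 112 bases on opposite strands, and whether the counting used strand is not given in the sources used here. Both also have near copies elsewhere in the genome. At 90% identity or more over at least 150 bases, the transcript of Hspd1 matched 7 pseudogenes and that of Hspe1 matched 5 other genes, 4 of them pseudogenes, with a highest identity of 99.0% for each. None of these copies had a row, and their part in either value was not tested. At the same limits the transcripts of Hspa9 and Yme1l1 each matched 1 pseudogene, at 92.1% and 96.1%, and neither pseudogene had a row.

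Trap1 (ENSMUSG00000005981.11), the mitochondrial member of the Hsp90 family, was lower by a small amount. It fell by 0.21 log2 units with a standard error of 0.0647, to 86.3% of the Cre-T level (78.5% to 94.9%, limma adjusted p = 0.019) per the authors' deposited table. Its annotated place is chromosome 16, from 4039971 to 4077827 (GENCODE M21, GRCm38), 562.2 kb from Dnaja3 at 4639989 to 4707695. Its exons overlap those of Dnase1 by 54 bases.

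Lonp1 (ENSMUSG00000041168.9) had the lowest fold change of the 10. It encodes LON, which degrades oxidised and surplus matrix proteins and acts on proteins bound to mitochondrial DNA. It fell by 1.08 log2 units with a standard error of 0.114, to 47.3% of the Cre-T level (40.0% to 56.0%, limma adjusted p = 4.3e-05) per the authors' deposited table. Only 1.14% of the rows of the authors' deposited table had a lower fold change, and by t it ranked 8 from the lowest. Lonp1 lies on chromosome 17 from 56614297 to 56626887, no annotated exon of another gene overlaps its own, and no near copy was found at the identity named above.

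The 2 parts of the ClpXP protease moved in opposite directions. Clpp (ENSMUSG00000002660.7), the proteolytic barrel, fell by 0.25 log2 units with a standard error of 0.0777, to 83.9% of the Cre-T level (74.8% to 94.0%, limma adjusted p = 0.019) per the authors' deposited table. Clpx (ENSMUSG00000015357.5), the ring that unfolds substrates and feeds them to the barrel, rose 1.42-fold (1.15 to 1.74), a log2 fold change of 0.50 ± 0.14 (limma adjusted p = 0.013) per the authors' deposited table. In mammals ClpX is also known to act without ClpP, on the enzyme that begins haem synthesis. The standard error of Clpx was the largest of the 10, and 90.7% of the rows of the authors' deposited table had a lower fold change. Clpx has 1 pseudogene that matches at 97.4% identity, with no row of its own. Clpp lies on chromosome 17 from 56990305 to 56996188, 363.4 kb from Lonp1, and Clpx on chromosome 9 from 65294260 to 65330658.

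**Figure D2:**
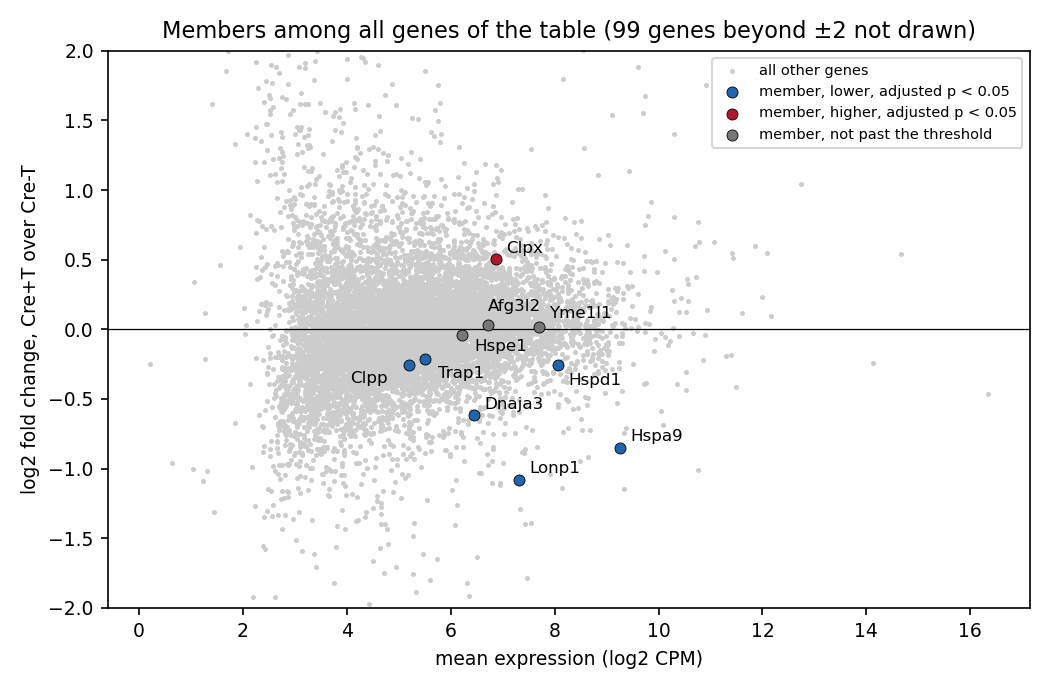
Mean expression in log2 CPM against log2 fold change for the genes of the authors' deposited table, with the 10 genes named and coloured by their call; 99 genes beyond 2 log2 units are not drawn. Hspa9 lies at 9.27 log2 CPM and -0.85, Lonp1 at 7.31 and -1.08, and Clpx at 6.87 and 0.50.

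The inner membrane AAA proteases among the 10 genes did not pass. Afg3l2 (ENSMUSG00000024527.9) is a catalytic subunit of the AAA protease that faces the matrix, and Yme1l1 (ENSMUSG00000026775.4) is the AAA protease that faces the intermembrane space. Afg3l2 stood at 0.03 ± 0.06 log2 units, or 102.1% of the Cre-T level (93.8% to 111.1%, limma adjusted p = 0.70) per the authors' deposited table. Yme1l1 stood at 0.02 ± 0.05, or 101.3% (94.2% to 109.0%, limma adjusted p = 0.79) per the authors' deposited table. Both signs turned to negative in 3 of 5 other scalings or trend removals, and neither gene passed there. Partners named for that role were Spg7 and Afg3l1, other subunits beside Afg3l2, at 0.02 ± 0.10 and -0.14 ± 0.07 per the authors' deposited table. The scaffold genes Phb and Phb2 stood at -0.25 ± 0.10 and 0.09 ± 0.06 per the authors' deposited table. None of these partners passed the threshold under the authors' scaling. They belong to a list of 17 genes, of which 2 fell under that scaling. With summed expression made equal 7 of the 17 fell, beside 38.5% of all rows. Oma1, which cleaves the same fusion protein as Yme1l1, fell by 0.51 log2 units with a standard error of 0.14 per the authors' deposited table.

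**Figure D3:**
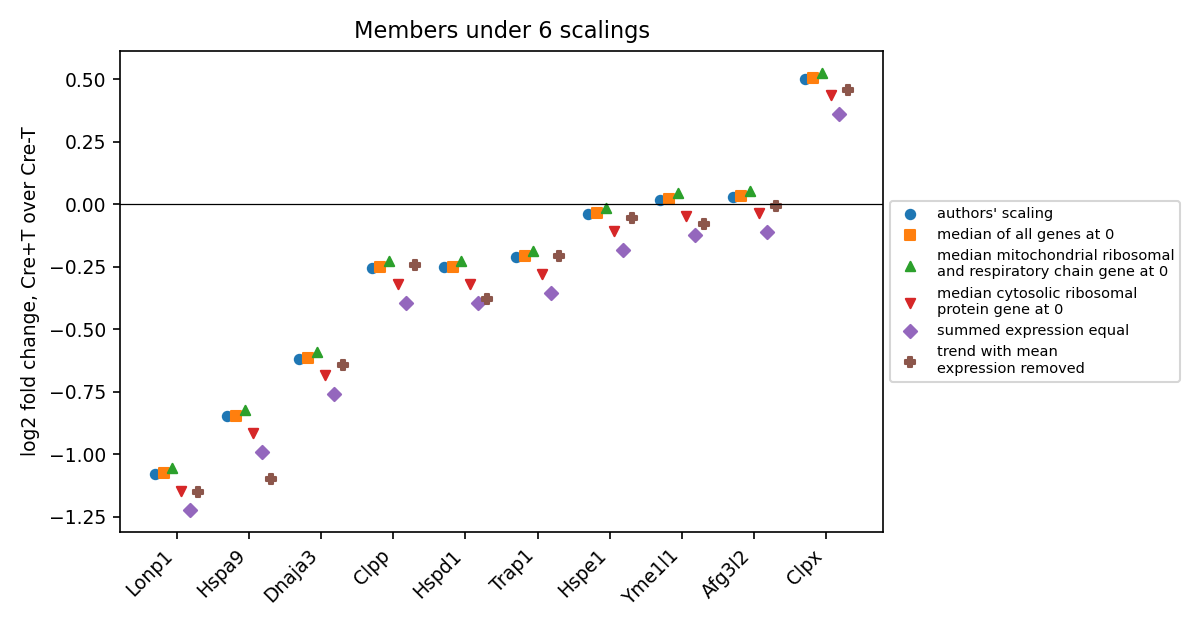
Log2 fold change of each gene under 6 scalings, 1 symbol per scaling. Lonp1, Hspa9, Dnaja3, Clpp, Hspd1 and Trap1 stay below 0 and Clpx above 0 under all 6, while Yme1l1 and Afg3l2 lie on both sides of 0.

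Levels of different genes can be compared only per length, so the mean CPM, as a geometric mean over both groups, was divided by the longest coding transcript. On this scale of CPM per kb, Hspa9 had the highest level at 202.2, followed by Hspd1 at 109.9 and Hspe1 at 96.3. Lonp1 followed at 53.8 CPM per kb, Yme1l1 at 44.2, Clpx at 40.5 and Clpp at 37.2. Afg3l2 at 33.9 and Dnaja3 at 33.2 CPM per kb were next, and Trap1 was lowest at 19.7. The chaperones of the Hsp70 and chaperonin systems thus ranked above every protease, with the cochaperone Dnaja3 and Trap1 as exceptions. The spread between samples is not known for these levels, so neighbours such as Hspd1 and Hspe1, or Afg3l2 and Dnaja3, are not shown to differ. The transcript used in islets may be shorter than the longest one.

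**Figure D4:**
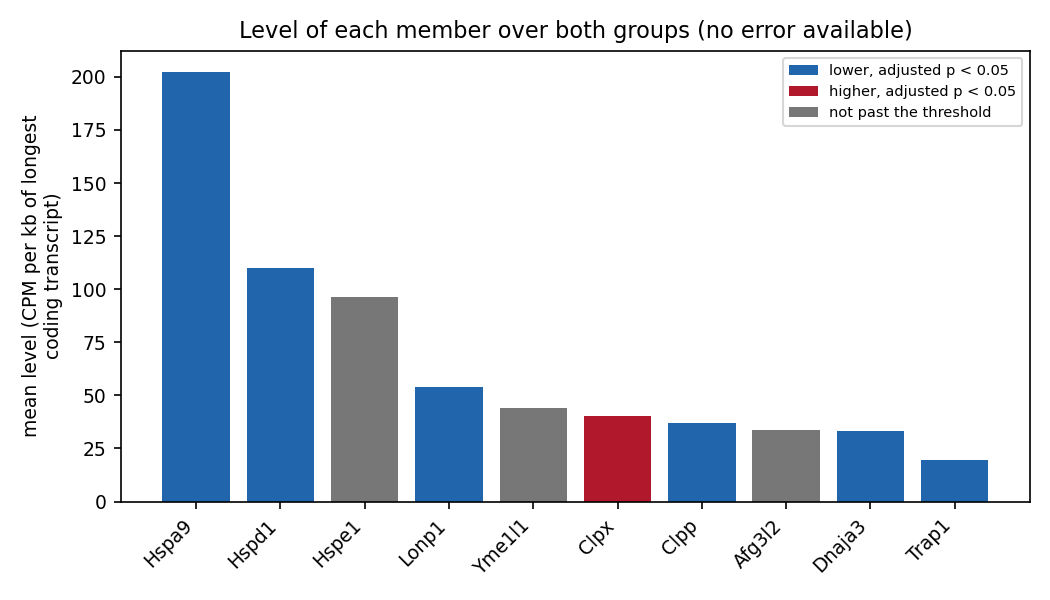
Mean level of each gene in CPM per kb of its longest coding transcript, over both groups, as bars from 0, coloured by call; no error could be had. Hspa9 is at 202.2 and Trap1 at 19.7 CPM per kb.

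Other genes of mitochondrial protein care were counted in the same way. Of 13 measured chaperones and assembly factors beside the 10 genes, 3 fell and none rose, with a median of -0.08 per the authors' deposited table. They were Clpb, a disaggregase of the intermembrane space, at -0.68 ± 0.10, Bcs1l, which assembles respiratory complex III, at -0.56 ± 0.13, and the matrix cyclophilin gene Ppif at -0.27 ± 0.10 per the authors' deposited table. The 13 also held Hspa14, a cytosolic Hsp70 gene, at 0.14 ± 0.07 and Prelid1, a lipid transfer gene, at -0.25 ± 0.12. Neither was past the threshold per the authors' deposited table. Of 17 measured proteases and their scaffolds, 2 fell and 1 rose, with a median of -0.01 per the authors' deposited table. The 17 also held the ribonuclease gene Lactb2 (0.01 ± 0.08) and the insertase gene Oxa1l (0.01 ± 0.09), neither past the threshold per the authors' deposited table. Pitrm1, which degrades cleaved presequences, fell by 0.66 log2 units with a standard error of 0.16, beside Oma1 above, while Pmpca, a subunit of the presequence peptidase, rose by 0.23 ± 0.08 per the authors' deposited table. Of 24 measured import genes, 7 fell and 1 rose, with a median of -0.03 per the authors' deposited table. Lowest in p among them were Tomm40, the outer membrane channel, at -0.36 ± 0.08, Timm17b at -0.47 ± 0.11 and Timm8a1 at -0.63 ± 0.18, all of which fell per the authors' deposited table. Under the scaling that equalises summed expression, 9 of the 13 chaperones, 7 of the 17 proteases and 10 of the 24 import genes fell and none rose, beside 38.5% lower and 8.42% higher over all rows. These shares, like that of the 10 genes, are to be read against the 20.1% lower and 17.6% higher of all rows, and no difference between lists was tested.

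Larger sets of mitochondrial genes were set beside the 10. Of 74 mitochondrial ribosomal protein genes 18 fell and 1 rose, with a median of -0.09, and the lowest stood at -0.56 per the authors' deposited table. Of 78 respiratory chain and ATP synthase genes 8 fell and 17 rose, with a median of 0.03 and a lowest value of -0.56 per the authors' deposited table. Lonp1, Hspa9 and Dnaja3, with log2 fold changes of -1.08, -0.85 and -0.62, were thus lower than any gene of either list per the authors' deposited table. The split of the respiratory chain genes turned with the scaling: with summed expression made equal 25 fell and 9 rose, with a median of -0.11, and with the median cytosolic ribosomal protein gene at 0 13 fell and 12 rose. Under the first of these scalings 43 of the mitochondrial ribosomal protein genes fell and none rose. With the median of both lists together set to 0, the fold changes of the 10 moved by 0.02 log2 units and the same 7 were called. Of 29 measured cytosolic heat shock proteins and chaperonin subunits 6 rose and 5 fell, with a median of -0.02 per the authors' deposited table. Under the equal-sum scaling 2 of these rose and 16 fell, with a median of -0.17. The 29 also held Dnajb9, a gene of the endoplasmic reticulum, at -0.23 ± 0.14 and not past the threshold per the authors' deposited table. Ahsa1, an activator of Hsp90, fell by 0.59 log2 units (standard error 0.12), while the chaperonin subunit gene Cct5 rose by 0.20 ± 0.04 and the Hsp40 gene Dnaja1 by 0.54 ± 0.13 per the authors' deposited table. The list with the lowest median of those drawn in the plot of gene lists was that of mitochondrial serine, proline and one-carbon enzymes, of which 8 of 9 measured fell and none rose, with a median of -0.88 per the authors' deposited table. Lowest in p there were Pck2, which makes phosphoenolpyruvate in mitochondria, at -1.29 ± 0.17, Aldh1l2 at -2.96 ± 0.40 and the proline synthesis gene Pycr1 at -1.76 ± 0.25, all of which fell per the authors' deposited table.

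**Figure D5:**
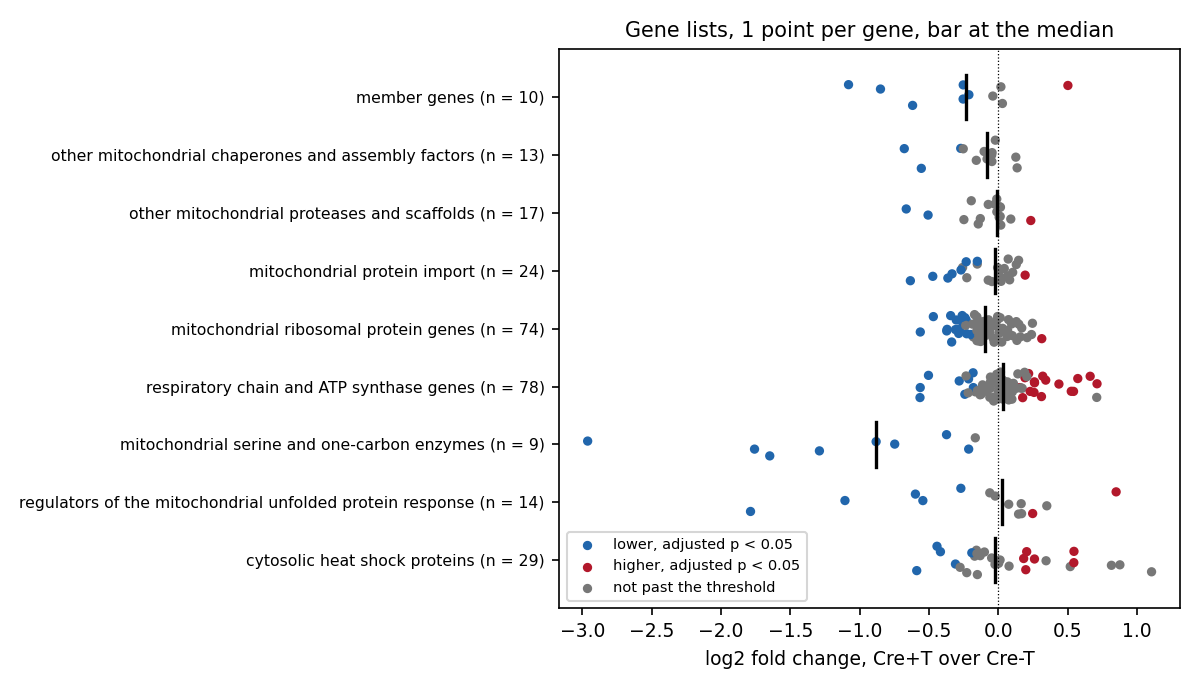
Log2 fold change of each measured gene in 9 lists, 1 point per gene, coloured by call, with a black bar at the median of the list. The 10 genes have a median of -0.23, and the serine and one-carbon enzymes of -0.88, while the medians of the other 7 lists lie between -0.09 and 0.03.

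Regulators that have been linked to the mitochondrial unfolded protein response moved both ways. Of 14 measured, 5 fell and 2 rose, with a median of 0.03 per the authors' deposited table. Under the equal-sum scaling 6 fell and 1 rose, with a median of -0.12, beside 38.5% lower and 8.42% higher over all rows. Atf5, the mammalian factor likened to the worm regulator of this response, fell by 1.79 log2 units with a standard error of 0.30, to 0.290 of the Cre-T level (limma adjusted p = 0.00084) per the authors' deposited table. Ddit3, which encodes CHOP, fell by 1.11 log2 units (standard error 0.19), Cebpg, a CEBP partner of ATF4, by 0.54 (0.09), and Atf4 by 0.27 (0.07) per the authors' deposited table. Nrf1, a factor of nuclear genes for mitochondria whose motif core was marked in Clpx above, fell by 0.60 log2 units with a standard error of 0.10 per the authors' deposited table. A link between Nrf1 and Clpx was not tested, and this motif was chosen after other matches were seen. Jun (0.85 ± 0.24) and, at the edge of the threshold, the kinase gene Eif2ak4 (0.25 ± 0.09, limma adjusted p = 0.0499) rose per the authors' deposited table. The heat shock factor genes did not pass, with Hsf1 at 0.08 ± 0.09 and Hsf2 at -0.02 ± 0.08 per the authors' deposited table. Also not past the threshold were Ubl5 (0.17 ± 0.07), Nfe2l2 (0.17 ± 0.11), and the kinase genes Eif2ak1 (-0.06 ± 0.08), Eif2ak2 (0.35 ± 0.16) and Eif2ak3 (0.15 ± 0.12) per the authors' deposited table.

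Markers of other cells differed between the groups in the same comparison. All 22 measured acinar markers rose, with a median of 2.38 log2 units, led in p by Pnlip at 3.19 ± 0.77, Clps at 2.99 ± 0.75 and Cpb1 at 2.93 ± 0.73 per the authors' deposited table. Leukocyte markers rose in 6 of 11 measured (median 1.21), with C1qa at 1.21 ± 0.18, H2-Aa at 2.08 ± 0.33 and H2-Ab1 at 2.03 ± 0.36 per the authors' deposited table, while 12 of 23 listed had no row. The other 5 measured did not pass, among them C1qb at 0.34 ± 0.16, C1qc at 0.24 and Cd68 at -0.35 ± 0.17 per the authors' deposited table. Red blood cell markers rose in 3 of 4 measured (median 3.37), with Hbb-bs at 3.22 ± 0.87, Hba-a1 at 3.32 ± 1.02 and Hba-a2 at 3.42 ± 1.10 per the authors' deposited table, and near-identical globin copies share reads. Endothelial and stromal markers rose in 3 of 16 and fell in 1 (median 0.32), with Rgs5 at 1.51 ± 0.36, Plvap at 0.995 ± 0.24 and Dcn at 1.56 ± 0.55, all higher per the authors' deposited table. Of 7 ductal markers 1 rose, Epcam at 0.66 ± 0.13, and 1 fell, Krt7 at -0.29 ± 0.11, while Sox9 at 1.11 ± 0.49 did not pass per the authors' deposited table (median 0.59). Of the 12 beta cell markers 7 rose and 1 fell (median 0.59), with Pcsk1 at 0.92 ± 0.12, Ero1lb at 0.77 ± 0.14 and Pdx1 at 0.57 ± 0.11 per the authors' deposited table. The 1 that fell was Ins2, whose sign was assumed to set the direction. Of 11 other endocrine markers 1 rose, Ttr at 1.88 ± 0.26, and 3 fell (median -0.24), among them Etv1 at -0.89 ± 0.22 and Pyy at -0.69 ± 0.18 per the authors' deposited table. With the trend with mean expression removed, 19 of the 22 acinar markers rose, while 4 beta cell markers rose and 2 fell. Other endocrine markers then rose in 1 and fell in 5, beside 22.0% lower and 15.5% higher over all rows. The part of these cells in the changes of the 10 genes was not tested, and summed marker levels per group could not be had. In such bulk samples fewer cells of a type and less RNA per cell cannot be told apart.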

How the data were processed

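The authors deposited 1 table of limma results, with 10208 genes and no values per sample. Per the submitters' processing notes, TopHat2 placed the reads on GRCm38 and limma gave the tests. The sources used here do not give the counting tool, strand setting, low-gene filter or samples of the fit. Per the file headers, the table gives a log2 fold change, a mean on the log2 scale (read as log2 CPM, as voom gives), the moderated t and log-odds as scores, and 3 kinds of p-value (raw, adjusted and q).

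The adjusted p was recomputed as the Benjamini-Hochberg value of all rows. Standard errors are fold change over t, and 95% intervals use 16.1 degrees of freedom, at which the p-values follow from t. Annotation was GENCODE M21, to which 10190 gene IDs matched without version, and promoters were RefSeq's (GRCm38.p6). Near copies were sought with BLAST 2.17.0, and tables were made with Python 3.11.15, pandas 2.3.3 and SciPy 1.17.1. Summed expression was built from group means estimated from the mean and fold change with groups of 7 and 9. Shifted fold changes kept their standard errors and were tested again. A check on simulated data covered only a uniform shift read from the median, with few genes changed and directions balanced. It does not bear on the equal-sum scaling, or on data in which 37.6% of rows are called.

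The 10 genes and the other lists were chosen with earlier results of these data known, and the NRF1, GABP and YY1 motifs after the other matches were seen. All 10 genes were named, of each list the 3 genes smallest in p, and every measured regulator. Partners of the 10 genes were added for their role. Some further genes of the lists that did not pass were added to show what the lists hold. Lists of ribosomal and respiratory chain genes were taken by symbol.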

Additional observations from a re-analysis of the deposited data

How the results depend on the processing

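The same 7 genes were called under each of 5 other scalings or trend removals and at an adjusted p under 0.1. At an adjusted p under 0.01 the genes that fell numbered 4 (Hspa9, Hspd1, Lonp1 and Dnaja3) and those that rose 0. With Holm adjustment these numbers were 3 (Hspa9, Lonp1 and Dnaja3) and 0, and with a minimum change of 0.5 log2 units they were 3 and 1. Stricter thresholds lose calls by construction. The log2 fold change of Afg3l2 turned to -0.11 with summed expression made equal, -0.0369 with the median cytosolic ribosomal protein gene at 0 and -0.0071 with the trend with mean expression removed. That of Yme1l1 turned to -0.12, -0.0479 and -0.0804 under the same 3 settings, and neither gene passed. Over all settings the adjusted p ranged from 5e-07 to 6.5e-05 for Hspa9, from 8e-06 to 0.00059 for Lonp1 and from 1.9e-05 to 0.012 for Dnaja3. With Holm adjustment giving the upper end, it ranged from 4.7e-05 to 1.0 for Hspd1, 0.00088 to 1.0 for Clpp, 0.00053 to 1.0 for Trap1 and 0.01 to 1.0 for Clpx. No paired analysis was possible because the data give no values per sample, and for the same reason no replicate could be left out in turn. Depth per sample is unknown. Searching only the bases before the start left the motif matches in the same genes.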

Other observations

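Genes of mitochondrial upkeep outside protein folding were counted against the same 20.1% lower and 17.6% higher of all rows. Of 10 measured genes of mitochondrial biogenesis and mitochondrial DNA, 2 fell and 1 rose, with a median of -0.12 per the authors' deposited table. Those were Nrf1, given above, Peo1, the helicase that unwinds mitochondrial DNA, at -0.69 ± 0.12, and Gabpb1, a subunit of the factor GABP, which rose by 0.38 ± 0.09 per the authors' deposited table. Among 15 measured genes of fusion, fission and mitophagy, 3 fell and 1 rose, with a median of -0.09 per the authors' deposited table. The fusion gene Opa1, whose product is cut by Yme1l1 and Oma1, fell by 0.16 log2 units with a standard error of 0.05 per the authors' deposited table. Fis1, a fission adaptor, rose by 0.23 ± 0.07, and Fundc1, a mitophagy receptor, fell by 0.26 log2 units with a standard error of 0.09 per the authors' deposited table. With both groups' summed expression made equal, 6 of the 10 biogenesis genes fell and 1 rose, and 7 of the 15 fusion, fission and mitophagy genes fell and none rose, beside 38.5% lower and 8.42% higher over all rows.

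Promoter windows of the 8 genes held between 55.3% G and C in Dnaja3 and 73.3% in Hspd1, against a median of 61.3% over the windows of genes in the table and 52.7% over all windows.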
